A study of Mus musculus with 4 samples.

Results

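Open chromatin was measured by ATAC-seq at 9 genes of the nuclear lamina and nuclear envelope, out of 21887 protein-coding genes: Lmna, Lmnb1, Lmnb2, Tmpo, Lbr, Banf1, Sun1, Sun2 and Ahctf1. In ATAC-seq the transposase Tn5 cuts accessible DNA and leaves sequencing adapters in it, and a peak marks a place with more cuts than its surroundings. A peak was counted at a gene when its midpoint lay inside the gene's span in mouse build mm10 or within 50000 bp of it, so most windows also hold neighbouring genes. Tmpo was chosen by regions gained in both comparisons and Ahctf1 by regions gained in the knockout, as seen in earlier results of the same lists. The counts of gained regions given here for both genes are therefore a description and no evidence that they stand apart.

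The cells were dermal fibroblasts of C57BL/6 mice, with 100 days in every label and 1 library per group. In the first comparison a conditional Sod2 knockout (Sod2-/-), which lacks the superoxide dismutase of mitochondria, was set against a Sod2+/+ control. In the second, Sod2+/+ cells treated with rotenone (250 µM in the label), which blocks complex I of the respiratory chain, were set against Sod2+/+ cells given vehicle. The labels used here do not name the Cre driver, the deleted part of Sod2, the length of treatment or the number of mice or cultures. With no replicates there is no test, and every difference below is one between 2 libraries.

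The nuclear lamina is a meshwork of intermediate filament proteins, the lamins, under the inner nuclear membrane. It holds silent chromatin at the nuclear edge through membrane proteins that bind lamins, and it is tied to the cytoskeleton by bridges across both membranes. Lamin A and lamin B1 are known from work on aging and senescence: a faulty lamin A causes a premature aging syndrome in humans, and loss of lamin B1 is a common mark of senescent fibroblasts. The series title speaks of JunB, an AP-1 subunit, and of skin aging, which places these genes near the question of the study.

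The start regions below show the letters at annotated starts of some of the genes. Apart from the lost region at the Sun2 start, the gained and lost regions lie outside these windows, and their sequences are not shown. Each sequence is a 300 bp RefSeq window (GRCm38.p6, the assembly behind mm10) from 250 bases before to 50 after an annotated start, read 5′ to 3′ on the strand of the gene. Capitals mark every match, on either strand, to the AP-1 letters TGANTCA, to the CCAAT box written CCAAT, to the GC box letters GGGCGG, or to the CHR letters of cell cycle promoters, here TTTGAA. Shown are Tmpo at both starts, Ahctf1, Lmna and Lbr, which have AP-1 letters, and Sun2 and Lmnb2, whose start peaks were weak.
Tmpo, upstream start, chr10:91171570-91171869, minus strand: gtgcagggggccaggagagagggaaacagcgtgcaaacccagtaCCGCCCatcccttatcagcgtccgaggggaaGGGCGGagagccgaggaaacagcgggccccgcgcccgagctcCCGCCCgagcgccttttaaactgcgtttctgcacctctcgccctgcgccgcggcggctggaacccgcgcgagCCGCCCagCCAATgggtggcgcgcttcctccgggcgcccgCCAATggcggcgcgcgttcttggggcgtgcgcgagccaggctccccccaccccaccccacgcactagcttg
Tmpo, downstream start, chr10:91170501-91170800, minus strand: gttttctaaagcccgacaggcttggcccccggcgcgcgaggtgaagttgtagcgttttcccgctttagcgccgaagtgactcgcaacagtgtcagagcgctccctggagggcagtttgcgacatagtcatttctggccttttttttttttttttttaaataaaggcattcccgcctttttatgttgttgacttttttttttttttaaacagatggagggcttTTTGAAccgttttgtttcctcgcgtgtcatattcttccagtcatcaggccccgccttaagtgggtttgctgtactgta
Ahctf1, chr1:179803966-179804265, minus strand: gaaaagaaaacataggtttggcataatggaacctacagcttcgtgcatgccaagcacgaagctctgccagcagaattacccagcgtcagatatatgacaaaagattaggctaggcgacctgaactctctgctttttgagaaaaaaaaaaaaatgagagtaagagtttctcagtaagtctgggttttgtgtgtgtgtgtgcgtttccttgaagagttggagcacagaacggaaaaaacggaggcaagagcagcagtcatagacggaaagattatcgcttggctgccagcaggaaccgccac
Lmna, chr3:88503303-88503602, minus strand: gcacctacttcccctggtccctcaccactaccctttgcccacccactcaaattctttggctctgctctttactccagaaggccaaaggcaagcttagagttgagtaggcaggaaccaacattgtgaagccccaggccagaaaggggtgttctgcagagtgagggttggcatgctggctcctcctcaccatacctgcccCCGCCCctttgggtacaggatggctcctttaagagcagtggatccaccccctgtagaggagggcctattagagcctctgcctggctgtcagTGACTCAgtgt
Lbr, chr1:181842352-181842651, minus strand: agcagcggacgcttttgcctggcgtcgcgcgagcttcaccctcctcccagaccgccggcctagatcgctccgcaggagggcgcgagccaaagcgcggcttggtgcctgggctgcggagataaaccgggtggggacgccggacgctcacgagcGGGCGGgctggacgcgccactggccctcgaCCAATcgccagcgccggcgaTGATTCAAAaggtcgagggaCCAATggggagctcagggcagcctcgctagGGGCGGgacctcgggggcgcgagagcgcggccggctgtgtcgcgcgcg
Sun2, chr15:79742487-79742786, minus strand: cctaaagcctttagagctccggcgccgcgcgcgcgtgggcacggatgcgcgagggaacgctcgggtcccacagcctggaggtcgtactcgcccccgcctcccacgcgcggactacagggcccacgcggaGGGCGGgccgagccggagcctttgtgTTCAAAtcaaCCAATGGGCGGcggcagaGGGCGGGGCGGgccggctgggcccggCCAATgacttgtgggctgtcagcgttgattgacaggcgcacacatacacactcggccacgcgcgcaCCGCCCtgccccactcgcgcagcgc
Lmnb2, chr10:80918196-80918495, minus strand: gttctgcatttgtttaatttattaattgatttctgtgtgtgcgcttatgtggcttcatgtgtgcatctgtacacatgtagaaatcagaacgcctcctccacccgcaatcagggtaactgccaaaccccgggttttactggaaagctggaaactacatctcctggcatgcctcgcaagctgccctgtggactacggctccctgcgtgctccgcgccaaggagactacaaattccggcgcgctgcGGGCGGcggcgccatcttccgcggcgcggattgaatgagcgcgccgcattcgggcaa

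Of the 9 genes, 8 were in the promoter table, with 13 start windows in all, and Lmnb1 is named only. CCAAT letters were in 7 of the 13 windows, against 38.2% of 21263 windows of protein-coding genes, and GC box letters in 8 of 13, against 46.2%. The AP-1 letters were in 2 of 13 windows, against 6.99% of all. In Lmna they began 40 bases after the start and in Lbr 48 bases before it, where they overlapped a TTTGAA match. TTTGAA was in 3 of 13 windows, against 16.0%. The upstream Tmpo window was 71.7% G and C and the Ahctf1 window 45.3%, against a median of 56.3%. A match describes the letters and does not show that a factor binds.

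Because read depth is unknown and the deposited lists differ in length, from 340240 peaks in vehicle to 585165 in the knockout, each list was ranked by the authors' −log10 p, and its 30000 best ranked peaks are called strong. The fold given for a peak is the authors' enrichment over the local background. It belongs to that peak in that list: the median fold of strong peaks ran from 5.49 in the knockout to 7.13 in vehicle, and a wide peak averages over more bases than a narrow one. As a check of the label, a strong peak lay within 1000 bp of a start at 3 to 4 of 10 fibroblast genes per library, among them Col1a2, Fn1 and Vim, and at 0 of 6 keratinocyte genes. Fibroblast genes had a peak of any strength there in 9 or 10 of 10 cases, but so did 5 of 6 keratinocyte genes in the knockout and 3 of 6 in each other library, and 4 of 4 endothelial, 3 of 4 myeloid and 3 of 4 skeletal muscle genes in the knockout. Of all genes in the promoter table, 38.2% to 39.1% had a strong start peak, so the share at the fibroblast genes does not set them apart. Among endothelial genes Tek, a receptor tyrosine kinase gene, had a strong start peak in every library, and myeloid, lymphocyte, melanocyte and Schwann, and skeletal muscle genes had no strong one.

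At the 9 genes together the lists held 412 peaks of any strength in the knockout and 348 in the control, and 261 in rotenone and 286 in vehicle. Strong among them were 41 in the knockout and 36 in the control, and 40 in rotenone and 37 in vehicle. Strong peaks made up 9.95% of the peaks at these genes in the knockout, against 5.13% of its whole list, and 10.3% in the control, against 6.93%. In rotenone the share was 15.3%, against 8.63% of the list, and in vehicle 12.9%, against 8.82%. The whole lists also hold peaks far from genes, and no share for windows at other genes is given. The gap therefore cannot be read as particular to these genes.

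**Figure D1:**
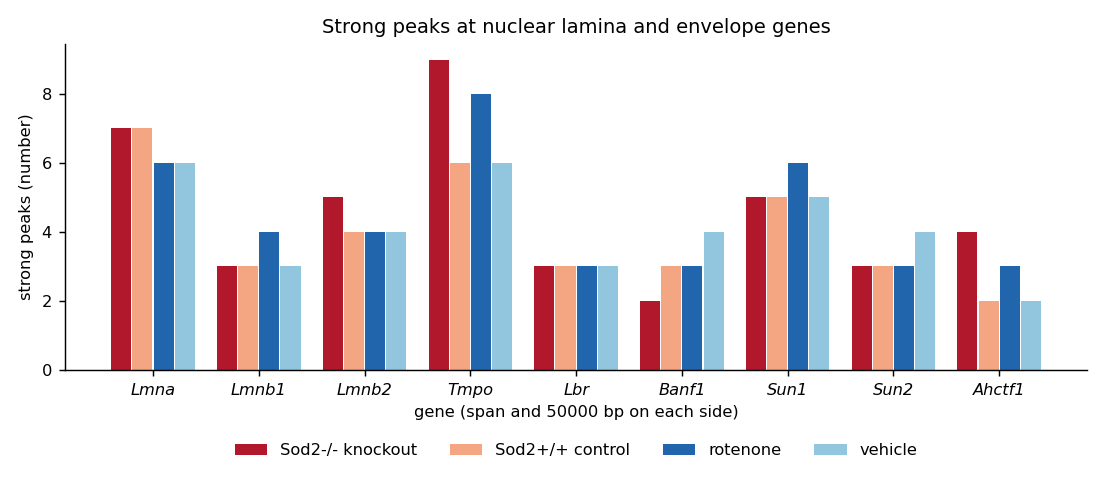
Number of strong peaks (y axis) at each of the 9 genes and 50000 bp around them (x axis), with 1 bar per library. Tmpo had 9 in the knockout and 6 in control, and 8 in rotenone and 6 in vehicle, and Lbr had 3 in all 4 libraries.

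Merging the strong peaks of the 4 libraries gave 50 regions, of which 16 had their midpoint inside a gene of the set and 34 outside. In all 4 libraries 28 of the 50 regions were strong (56.0%, against 46.1% of 42457 such regions over the genome). In 9 regions a single library had the strong peak. One region, near Ahctf1, had no overlapping peak of any strength in control and in vehicle, and each of the other 49 had one in every library. By position, 10 regions lay within 1000 bp of a start of the gene itself, and 9 more within 1000 bp of the start of a neighbour; the 4 Lmnb1 regions were not sorted in this way.

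Gained regions are strong peaks of the knockout or rotenone library that overlap none of the 60000 best ranked peaks of its own control, and lost regions are strong peaks of that control that overlap none of the 60000 best ranked peaks of the knockout or rotenone library. In the knockout 4 of 41 strong peaks at the 9 genes were called gained, while 5.33% of all strong knockout peaks were. Of 36 strong control peaks 1 was called lost, while 6.76% of all were. In rotenone 2 of 40 strong peaks were called gained (6.81% of all), and 2 of 37 strong vehicle peaks were called lost (8.04% of all). Between vehicle and control, which differ in neither Sod2 nor rotenone, 0 of 37 strong vehicle peaks were called gained (1.03% of all) and 0 of 36 strong control peaks lost (0.847% of all). The gains fell to Tmpo (1 in each comparison) and Ahctf1 (3 in the knockout, 1 in rotenone), and the losses to Ahctf1 in the knockout and to Lmna and Sun2 in rotenone. Lmnb1, Lmnb2, Lbr, Banf1 and Sun1 had no gained or lost region. Each count amounts to 4 peaks or fewer, too few to set the genes apart from the whole lists.

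Near starts most strong regions in the windows of these genes stood higher in the knockout and rotenone lists than in those of their controls. Of the 19 regions within 1000 bp of any annotated start, 17 had a better rank in the knockout than in control, against 51.1% of 7850 such regions over the genome, and 18 had a better rank in rotenone than in vehicle, against 53.7% of 7834. The exceptions were the Sun2 start in both comparisons and an Lmna region at 88492424-88492770 in the knockout. Peaks at the genes' own starts or ends outside these 19 went both ways. The Lmnb1 lower end, not sorted by start, ranked worse in the knockout than in control and better in rotenone than in vehicle. The Lmnb2 start, outside every strong list, ranked worse in both comparisons. The Banf1 start, also outside every strong list, ranked better in both. Farther from starts 16 of 26 regions had the better rank in the knockout (48.5% over the genome) and 15 of 26 in rotenone (48.9% over the genome). For vehicle against control 12 of the 19 had the better rank in vehicle, against 47.9% over the genome. By fold fewer of the 19 stood higher than by rank, though again a larger share than over the genome. The fold was higher in the knockout than in control at 9 of the 19 (47.4%, against 24.0% over the genome). It was higher in rotenone than in vehicle at 9 of the 19 (47.4%, against 29.2% over the genome). Peaks were mostly narrower, as they were over the genome: 5 of the 19 (26.3%) were wider in the knockout than in control, where the share over the genome was 18.1%, and 5 of the 19 (26.3%) were wider in rotenone than in vehicle, where it was 24.0%. Of the 19 regions, 9 lie at the starts of neighbouring genes, and no test was made of these shares. Some of the 19 lie close together at a single gene, as at Lmna, Tmpo and Sun1, so they are not separate loci. They also include regions in the windows of Tmpo and Ahctf1, which were chosen for gains. All of those ranked better in the knockout and in rotenone.

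**Figure D2:**
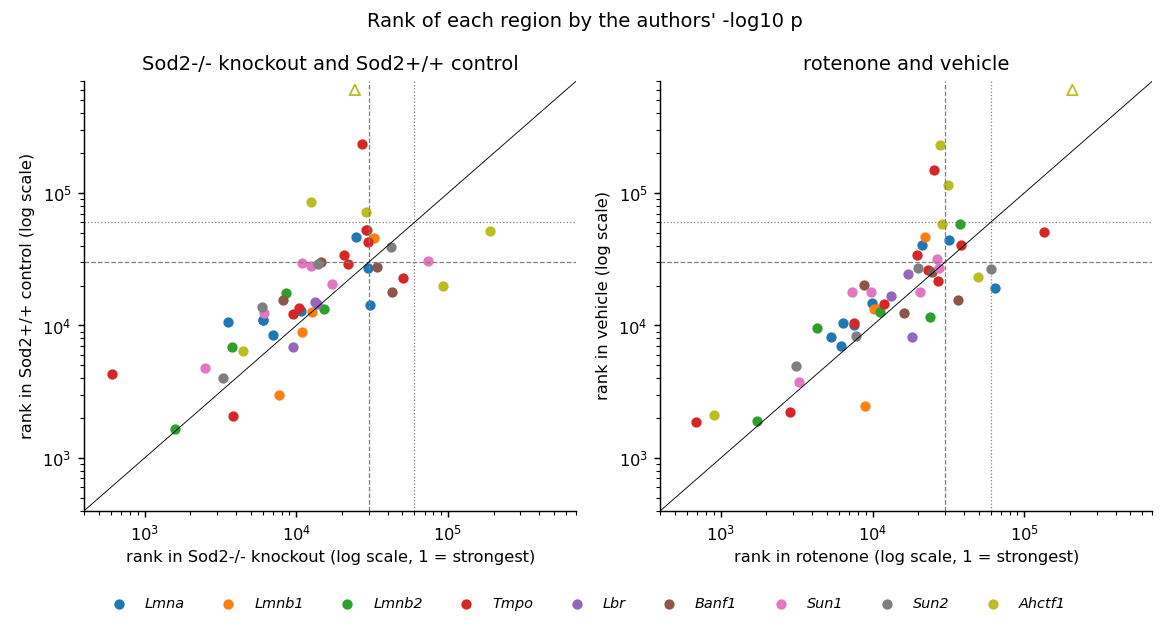
Rank of the best ranked peak in each of the regions in the knockout (left panel, x axis) and in the Sod2+/+ control (y axis), and in rotenone (right panel, x axis) and vehicle (y axis), on log scales with rank 1 the strongest. Points above the diagonal rank better in the knockout or rotenone; dashed lines mark rank 30000, dotted lines rank 60000, and triangles a region with no peak in the library on the y axis.

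The lamins come first. Lmna encodes lamin A and its splice form lamin C, the lamins of differentiated cells (chromosome 3, 88481148-88509932, minus strand). Its window held 7 strong peaks in the knockout and 7 in control, and 6 in rotenone and 6 in vehicle, with 4, 4, 4 and 3 of them inside the gene in the same order of libraries. Of its 8 regions, 5 were strong in every library.

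Over the Lmna start shown above, the peak at 88503152-88503807 had a fold of 7.34 in the knockout and 7.95 in control, and of 7.77 in rotenone and 7.97 in vehicle. Its rank was 6050 in the knockout and 10933 in control, and 6375 in rotenone and 10398 in vehicle. The peak was thus well inside the strong list everywhere, with close folds. It was 574 bp wide in the knockout and 646 bp in control, and 560 bp in rotenone and 600 bp in vehicle. A second annotated start lies at 88493312, and the region at 88492957-88493266 next to it had a fold of 7.24 in the knockout and 5.57 in control, and of 6.61 in rotenone and 6.37 in vehicle. Here the knockout rank was 3539, against 10597 in control, and the rotenone rank 5289, against 8150 in vehicle.

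Around these starts Lmna had further regions. At the upper end of the annotated span, 88509768-88510394, the fold was 7.47 in the knockout, 7.13 in control, 7.70 in rotenone and 7.27 in vehicle. In the knockout this place was split into 2 peaks that covered 404 bp, against 1 peak of 627 bp in control. Inside the gene at 88488455-88488857 the fold was 5.27 in the knockout and 5.75 in control, and 5.59 in both rotenone and vehicle. The region at 88492424-88492770, 715 bp downstream of the second start, was near the foot of the strong lists, with ranks of 29556 in the knockout and 27130 in control, and of 21214 in rotenone and 40305 in vehicle. At the starts of the neighbours Lamtor2 and Ubqln4 the rank was 6045 in the knockout and 10958 in control, and 6226 in rotenone and 7041 in vehicle.

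The lost Lmna region lay 16486 bp outside the gene, at 88526306-88526531, between Lmna and Mex3a. Its fold was 3.47 in rotenone and 6.79 in vehicle, with a rank of 64218 in rotenone and 19170 in vehicle. In the knockout the fold was 4.17 and the rank 30411, against 7.35 and 14167 in control. The region was thus strong in control and vehicle, and in the other libraries a weaker peak remained, in the knockout just below the strong list. A region inside Mex3a, an RNA-binding protein gene, at 88536602-88536862 was strong in the knockout (rank 24629) and not in control (rank 46869), but control still had it within 60000, so it was not called gained. Its rank was 31883 in rotenone and 44164 in vehicle.

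Lmnb1 encodes lamin B1, a B-type lamin found in nearly all cell types (chromosome 18, 56707813-56753424). Its strand and start were not used here, and the window holds 1 other gene, Marchf3. The lists held 3 strong peaks at Lmnb1 in the knockout and 3 in control, and 4 in rotenone and 3 in vehicle.

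The peak over the lower end of Lmnb1, 56707377-56708137, had a fold of 6.15 in the knockout and 8.81 in control, and of 7.03 in rotenone and 8.07 in vehicle. It ranked 10973 in the knockout and 8910 in control, and 10194 in rotenone and 13402 in vehicle. So the fold was lower in the knockout and in rotenone, while the rank was worse only in the knockout. Inside the gene at 56737312-56737734 lay the Lmnb1 peak with the widest gap in fold within each comparison. Its fold was 7.12 in the knockout and 12.5 in control, and 7.43 in rotenone and 13.5 in vehicle, and its rank was 7675 in the knockout and 2997 in control, and 8874 in rotenone and 2475 in vehicle. The peak was strong in each list and was called neither gained nor lost. A second internal peak at 56723819-56724327 had a fold of 5.94 in the knockout and 7.70 in control, and of 7.14 in rotenone and 8.03 in vehicle. Its rank differed by little in the first comparison (12695 in the knockout, 12675 in control). Close to the lower end, at 56708892-56709082, rotenone had a strong peak (fold 5.25, rank 22126), which in vehicle ranked 46148 (fold 4.55).

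Lmnb2 encodes lamin B2, the other B-type lamin (chromosome 10, 80901363-80918245, minus strand). Inside its span no library had a strong peak. Over the start in the Lmnb2 sequence above, the peak had a fold of 3.77 in the knockout and 4.70 in control, and of 3.12 in rotenone and 4.45 in vehicle. It ranked 39044 in the knockout and 37950 in control, and 97641 in rotenone and 45595 in vehicle. The Lmnb2 start peak was thus below the strong list in every library, lowest in rotenone, and 87 to 180 bp wide. At the internal start, 80906412, only rotenone had a peak within 1000 bp, at rank 299665.

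The strong peaks near Lmnb2 lay at its neighbours. The best ranked, at 80900718-80901194 over the start of Timm13, which encodes a chaperone of mitochondrial protein import, had a fold of 11.0 in the knockout and 14.7 in control, and of 11.2 in rotenone and 15.0 in vehicle. Its ranks were close, at 1577 in the knockout and 1641 in control, and 1739 in rotenone and 1913 in vehicle. At the start of Gadd45b, a stress response gene, 80929832-80930143 had a fold of 9.46 in the knockout and 9.35 in control, and of 9.11 in rotenone and 8.99 in vehicle. A region in Gng7 at 80955541-80955748 was strong in the knockout (rank 29177) and not in control (rank 52780). Inside Sppl2b, 80856329-80856538 had a fold of 5.58 in the knockout and 7.75 in control, and of 5.14 in rotenone and 8.52 in vehicle. It was strong in every list, and its rank was worse in the knockout (15193, against 13239 in control) and in rotenone (23841, against 11542 in vehicle). Between Gadd45b and Gng7, 80940474-80941173 ranked 8539 in the knockout and 17460 in control, and 11261 in rotenone and 12742 in vehicle.

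**Figure D3:**
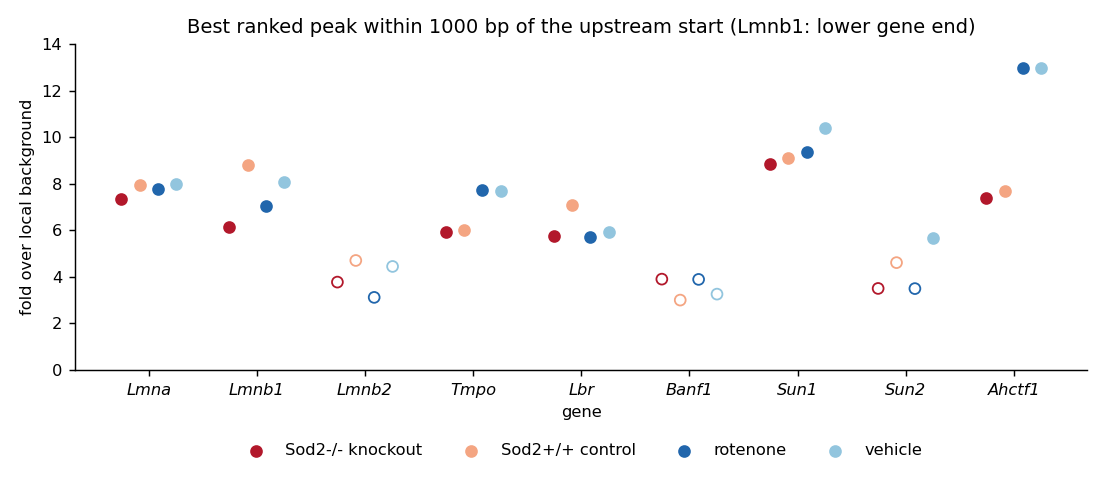
Fold over the local background (y axis) of the best ranked peak within 1000 bp of the upstream annotated start (for Lmnb1, of the lower gene end, and for Banf1, of the downstream start) at each gene (x axis), with 1 point per library and open points for peaks outside the 30000 strongest. For Banf1 the best ranked peak is the same at both starts. Lmnb2 and Banf1 had open points in all 4 libraries, and Sun2 in all but vehicle.

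Peaks at the genes' own starts fell into those strong everywhere and those weak nearly everywhere. A strong peak within 1000 bp of the start, or for Lmnb1 of a gene end, was seen at 6 of the 9 genes in the knockout, 6 in control, 6 in rotenone and 7 in vehicle. The 6 were Lmna, Lmnb1, Tmpo, Lbr, Sun1 and Ahctf1, and vehicle added Sun2. Of all 17492 genes in the promoter table, 38.5% had a strong start peak in the knockout and 38.3% in control. The share was 39.1% in rotenone and 38.2% in vehicle. Lmnb1 is not in that table, so its count through a gene end has no match in these shares, and the difference was not tested.

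Of the proteins that tie chromatin to the lamina, the first is Tmpo, which encodes the thymopoietins or lamina-associated polypeptides 2, with lamin-binding and nucleoplasmic forms (chromosome 10, 91147571-91181752, minus strand). Its window held 9 strong peaks in the knockout and 6 in control, and 8 in rotenone and 6 in vehicle. Inside the gene there were 5 in the knockout and 3 in control, and 6 in rotenone and 4 in vehicle. Of 10 regions, 4 were strong in every library.

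The gained Tmpo region lay inside the gene, 3034 bp downstream of the nearest annotated start, at 91167426-91167606 in the knockout and 91167433-91167577 in rotenone. Its fold was 4.40 in the knockout and 2.24 in control, and 4.82 in rotenone and 2.72 in vehicle. Its rank was 27111 in the knockout and 236352 in control, and 25323 in rotenone and 149607 in vehicle. The peak was present in the knockout and rotenone lists near the foot of the strong range, and in both controls only weak peaks of 57 and 61 bp lay there. The call held under 6 of 8 alternatives in the knockout and 5 of 8 in rotenone. Such a tally is partly set by position, rank and width. Narrower windows keep any region inside the gene, strong lists of 15000 drop any peak of worse rank, and the minimum of 150 bp drops narrower peaks. Tmpo was chosen for more than this region, but no other region within 50000 bp of Tmpo was gained in both comparisons. The next such region on the chromosome lay 278241 bp away, at 91459814-91460173, with ranks of 27486 in the knockout and 61124 in control, and of 29614 in rotenone and 85502 in vehicle, close to the limit of 60000 in control.

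Next to the gained region, at 91166980-91167302, the order was reversed. There the fold was 3.35 in the knockout and 5.33 in control, and 4.71 in rotenone and 5.62 in vehicle. The rank was 50680 in the knockout and 22733 in control, and 27141 in rotenone and 21789 in vehicle. The knockout peak lay outside the strong list but inside 60000, so the region was not called lost. The places adjoin, and in the knockout the strong peak stood at the one while in control it stood at the other.

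Over the upstream Tmpo start the region at 91171126-91171993 was strong in every library. The best peak had a fold of 5.92 in the knockout and 6.02 in control, and of 7.72 in rotenone and 7.67 in vehicle. It was 460 bp wide in the knockout and 868 bp in control, and 325 bp in rotenone and 456 bp in vehicle, and its fold was close within each comparison. In the window of the downstream Tmpo start, 91170693-91170856 was strong in the knockout (fold 4.20, rank 28952). In control it ranked 52971 (fold 3.58), in rotenone 38272 (fold 4.09) and in vehicle 40513 (fold 4.48). The region over the upper end of the span, 91181367-91182292, ranked 21774 in the knockout and 28913 in control, and 19516 in rotenone and 34078 in vehicle.

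Deeper in Tmpo, 11866 bp downstream of the nearest start, the peak at 91158441-91158927 had the highest fold inside the gene. It was 8.99 in the knockout and 13.0 in control, and 10.8 in rotenone and 12.9 in vehicle. The rank was 3819 in the knockout and 2072 in control, and 2854 in rotenone and 2219 in vehicle, so it stood lower in the knockout and in rotenone but well inside each strong list. A peak at 91156433-91156649 ranked 20676 in the knockout and 34055 in control, and 23120 in rotenone and 26358 in vehicle. The best ranked peak of the window belonged to the start of Slc25a3, the mitochondrial phosphate carrier gene, at 91123249-91124345. It ranked 610 in the knockout and 4333 in control, and 685 in rotenone and 1870 in vehicle. Here 3 knockout peaks covered 487 bp at a mean fold of 10.6, while 1 control peak covered 1097 bp at 8.23, so the knockout had the higher fold over fewer bases. A narrow peak of 40 or 41 bp at 91112341-91112381 was strong in the knockout (rank 29847) and present in the other 3 libraries at ranks of 42337 or worse. Upstream of the gene, 91199132-91199887 was strong in all 4 libraries, with ranks of 9525 in the knockout and 12140 in control, and of 11868 in rotenone and 14476 in vehicle.

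**Figure D4:**
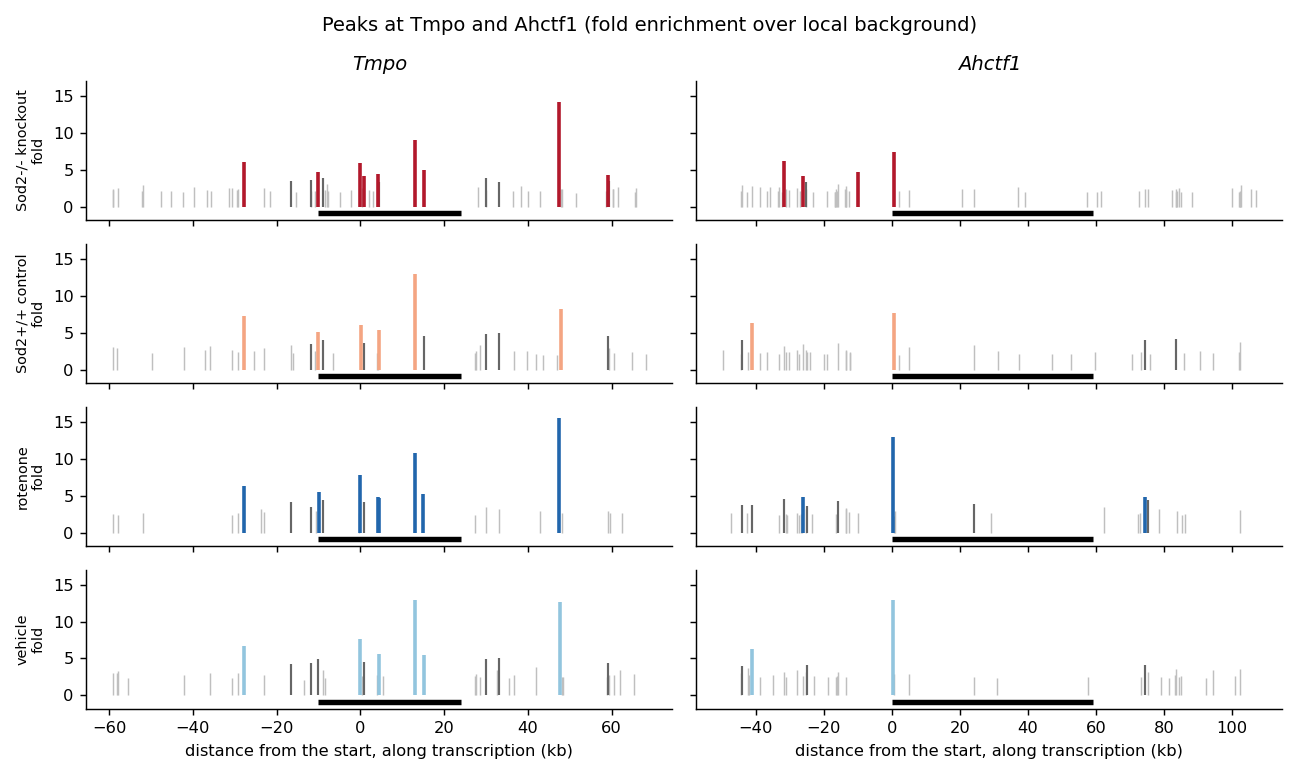
Fold over the local background (y axis) of every peak at Tmpo (left) and Ahctf1 (right) against the distance of its midpoint from the annotated start in kb, positive in the direction of transcription (x axis), with 1 row per library. Coloured lines are strong peaks, dark grey lines peaks outside these but among the 60000 best ranked, light grey lines weaker peaks, and the black bar the gene; upstream of Ahctf1 the knockout has 3 coloured lines and control 1.

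Lbr encodes the lamin B receptor, an inner membrane protein that binds B-type lamins and heterochromatin and also reduces sterols (chromosome 1, 181815315-181842401, minus strand). It held 3 strong peaks in each of the 4 libraries, all at the same places. Over the start, which carries AP-1 and CCAAT letters, 181841749-181842757 had a fold of 5.76 in the knockout and 7.10 in control, and of 5.71 in rotenone and 5.94 in vehicle. It ranked 13679 in the knockout and 14401 in control, and 17214 in rotenone and 24424 in vehicle. Upstream at 18506 bp from the gene, 181860669-181861146 had a fold of 6.91 in the knockout and 9.99 in control, and of 5.72 in rotenone and 9.71 in vehicle. Its rank was 9516 in the knockout and 6877 in control, and 18278 in rotenone and 8237 in vehicle, the lower rank in rotenone still inside the strong list. Another region, 39298 bp upstream, ranked 13186 in the knockout and 14930 in control, and 13232 in rotenone and 16551 in vehicle.

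Banf1 encodes barrier-to-autointegration factor, a small protein that bridges DNA, lamin A and LEM-domain membrane proteins such as the thymopoietins (chromosome 19, 5364633-5366876, minus strand). It held no strong peak inside the gene in any library. The best ranked peak within 1000 bp of its starts, a stretch shared with the neighbour Eif1ad, had a fold of 3.90 in the knockout and 3.00 in control, and of 3.89 in rotenone and 3.26 in vehicle. It ranked 35071 in the knockout and 93942 in control, and 43685 in rotenone and 98333 in vehicle. The Banf1 start was thus higher in the knockout and rotenone lists, but outside the 30000 strongest in each. The peak was 177 bp wide in the knockout and 721 bp in control, and 524 bp in rotenone and 715 bp in vehicle, and a wide peak averages its fold over more bases.

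The 4 strong Banf1 regions lay 18916 to 36585 bp from the gene, the farthest ranking 14595 in the knockout and 30318 in control, and 16175 in rotenone and 12335 in vehicle. At the start of Sart1, a splicing factor gene, 5388602-5389065 was strong in all 4 libraries, with ranks of 8180 in the knockout and 15594 in control, and of 8769 in rotenone and 20351 in vehicle. At 5335085-5335196 a peak of about 100 bp was strong in control (rank 17916) and vehicle (rank 15531) and ranked 42491 in the knockout and 36669 in rotenone. Inside Cst6, a protease inhibitor gene, 5345375-5346059 ranked 34239 in the knockout and 27589 in control, and 24671 in rotenone and 25445 in vehicle.

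Sun1 and Sun2 encode the SUN-domain proteins of the inner membrane, which hold nesprins across the envelope and so couple the lamina to the cytoskeleton. Sun1 (chromosome 5, 139200564-139249839, plus strand) held 5 strong peaks in the knockout and 5 in control, and 6 in rotenone and 5 in vehicle. Over its start, 139200174-139200839 had a fold of 8.84 in the knockout and 9.11 in control, and of 9.35 in rotenone and 10.4 in vehicle. It ranked 2486 in the knockout and 4790 in control, and 3273 in rotenone and 3735 in vehicle. This was one of the best ranked start peaks of the 9 genes, and its width was 535 to 596 bp in the 4 libraries. Near the internal start, 139215275-139215669 had a fold of 6.19 in the knockout and 5.17 in control, and of 7.84 in rotenone and 6.75 in vehicle. Its rank was 10881 in the knockout and 29544 in control, and 7322 in rotenone and 17986 in vehicle, so it stood higher in the knockout and in rotenone while being strong in all 4 lists.

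Among the outer Sun1 regions, the one inside Adap1 at 139282327-139282512 was strong in rotenone (rank 20493) and vehicle (rank 17995). It ranked 73328 in the knockout and 30790 in control, just outside the strong control list, so it could not be called lost. The region at the start of Get4, whose product delivers tail-anchored proteins to membranes, ranked 6160 in the knockout and 12513 in control, and 9736 in rotenone and 17810 in vehicle. Inside Dnaaf5, 139178989-139179170 ranked 12433 in the knockout and 28030 in control, and 27319 in rotenone and 27148 in vehicle. A region inside Get4 at 139267592-139268000 ranked 17313 in the knockout and 20460 in control, and 26790 in rotenone and 31696 in vehicle.

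Sun2 (chromosome 15, 79724068-79742536, minus strand) held no strong peak inside its span. Its start peak at 79742472-79742800 had a fold of 3.50 in the knockout and 4.61 in control, and of 3.49 in rotenone and 5.65 in vehicle. It ranked 42361 in the knockout and 39150 in control, and 60656 in rotenone and 26574 in vehicle. The start was thus strong in vehicle alone, and the rotenone peak lay just below the 60000 best ranked, so the loss in rotenone is a borderline call. The 3 other regions of the Sun2 window lay at the starts of Josd1, Gtpbp1 and Dnal4, and were strong in every library. At the Gtpbp1 start, for example, the rank was 3284 in the knockout and 4018 in control, and 3146 in rotenone and 4942 in vehicle.

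Ahctf1 encodes ELYS, a nucleoporin that binds chromatin at the end of mitosis and starts the assembly of nuclear pores there (chromosome 1, 179744904-179804015, minus strand). Its window held 4 strong peaks in the knockout and 2 in control, and 3 in rotenone and 2 in vehicle. A single one lay inside the gene in each library, over the start.

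The Ahctf1 start region, 179802915-179804048, had a fold of 7.38 in the knockout and 7.70 in control, and of 13.0 in both rotenone and vehicle. The best peak was 1015 bp wide in the knockout and 1134 bp in control, and 438 bp in rotenone and 491 bp in vehicle. Within each comparison the folds were close, and between the pairs they went with the way the region was split. Averaged over all peaks of the region, the fold was 7.38 in the knockout and 7.70 in control, and 8.59 over 746 bp in rotenone and 8.78 over 836 bp in vehicle. The ranks were 4483 in the knockout and 6449 in control, and 905 in rotenone and 2099 in vehicle.

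The changed Ahctf1 regions lay upstream of the gene, with no other protein-coding gene in that flank. The best ranked, 31750 bp upstream at 179835682-179835849, had a fold of 6.20 in the knockout and 3.15 in control, and of 4.59 in rotenone and 3.12 in vehicle. It ranked 12561 in the knockout and 85583 in control, and 31419 in rotenone and 115000 in vehicle. It was called gained in the knockout and lay just below the strong list in rotenone. The region at 179813914-179813954, 9919 bp upstream, was a 41 bp peak with a fold of 4.73 in the knockout (rank 24312), and neither control nor vehicle had any peak there. In rotenone it ranked 207710 (fold 2.66). Its width was far under the median of 163 bp of all regions gained in the knockout, of which 43.0% were under 150 bp.

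The third gained region, 179829992-179830105, lay 26033 bp upstream and was called in both comparisons. Its fold was 4.12 in the knockout and 3.44 in control, and 4.84 in rotenone and 2.60 in vehicle. It ranked 28704 in the knockout and 71248 in control, and 27692 in rotenone and 231072 in vehicle. The call held under 1 of 8 alternatives in the knockout and 3 of 8 in rotenone, where the peak spanned 49 bp. The other 2 knockout gains held under 4 (179835682-179835849) and 5 (179813914-179813954) of 8. Counting inside the gene span alone drops all of these regions whatever their strength, so the tallies do not compare Ahctf1 with Tmpo.

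In the same flank 1 region was lost in the knockout, 40975 bp upstream at 179844816-179845165. Its fold was 2.79 in the knockout and 6.34 in control, and 3.73 in rotenone and 6.33 in vehicle. It ranked 92283 in the knockout and 19692 in control, and 49836 in rotenone and 23142 in vehicle. The rotenone peak left the strong list but stayed within 60000 and was not called lost. The upstream flank of Ahctf1 thus held gains and a loss, while the peak over its start stayed strong in all 4 lists. On the other side, inside Kif28, a 62 bp peak at 179729629-179729690 was strong in rotenone (rank 28674) and ranked 58236 in vehicle, just inside the limit.

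Some calls depend on where the limit of 60000 falls. Called because the partner peak ranked just below the limit were the Sun2 start (rank 60656 in rotenone) and the Lmna region near Mex3a (64218 in rotenone). The partner peak of the Ahctf1 region 26033 bp upstream lay somewhat farther below it in the knockout comparison (71248 in control). In the rotenone comparison the partner peak of that Ahctf1 region ranked far lower (231072 in vehicle). The same held for the Tmpo calls (236352 in control, 149607 in vehicle), and the 41 bp Ahctf1 gain had no control peak. Not called gained because the partner peak still ranked within the limit were the Kif28 peak (58236 in vehicle), the region at the downstream Tmpo start (52971 in control) and the Gng7 region near Lmnb2 (52780 in control). Not called lost for the same reason were the Tmpo region at 91166980-91167302 (50680 in the knockout) and the Ahctf1 region at 179844816-179845165 (49836 in rotenone).

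At other genes of the nuclear envelope and pore few regions were gained or lost. These lists were written with earlier results of the same data known. At 20 envelope genes 0 of 94 strong knockout peaks were called gained and 3 of 101 strong control peaks lost, and 4 of 98 strong rotenone peaks gained and 6 of 96 strong vehicle peaks lost. At 25 nuclear pore genes 4 of 94 were gained and 2 of 86 lost in the knockout, and 7 of 102 gained and 3 of 86 lost in rotenone. In the knockout and rotenone comparisons these shares were below those of the whole lists, save for the pore genes in rotenone, where 6.86% were gained, against 6.81% of all. For vehicle against control, 2 of 86 strong vehicle peaks at pore genes were gained (2.33%, against 1.03% of all) and 0 of 86 strong control peaks lost, and at envelope genes 0 of 96 were gained and 1 of 101 lost (0.990%, against 0.847% of all).

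Of the envelope genes Syne3, which encodes the nesprin that binds plectin, had most changed regions, all losses. In the knockout it lost a region inside the gene at chromosome 12, 104952546-104952679, with a rank of 307489 in the knockout and 22784 in control, and another 9509 bp away. In rotenone it lost 2 others, 5780 and 25639 bp from the gene. Syne1, a giant nesprin gene, lost 2 regions in rotenone, the better ranked with a fold of 3.44 in rotenone and 8.16 in vehicle. Syne2, the other giant nesprin gene, gained 1 and lost 1 in rotenone, both inside the gene. Cbx5, which encodes the heterochromatin protein HP1α, a partner of Lbr, lost 1 region in each comparison, at different places. Lemd2, a LEM-domain protein gene, gained 1 in rotenone and lost 1 in vehicle against control.

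Of the pore genes Tpr, which encodes the nuclear basket filament protein, gained 1 region and lost 1 in the knockout and gained 2 in rotenone. One of these, 39427 bp from the gene, was gained in both comparisons, with ranks of 28375 in the knockout and 128809 in control, and of 29275 in rotenone and 130068 in vehicle. Nup107 and Nup133, whose products form the Y-shaped scaffold that ELYS brings to chromatin, gained 1 region each in both comparisons. Nup133 also gained 1 in vehicle against control, where neither Sod2 nor rotenone differs. The Nup133 regions gained in the knockout and in rotenone overlapped, 43273 bp from the gene, with a fold of 4.51 in the knockout and 3.27 in control, and of 4.96 in rotenone and 3.44 in vehicle. Those of Nup107 lay at different places, in the knockout inside the gene and in rotenone 918 bp outside it. Nup98 gained 1 region in the knockout and lost 2 in rotenone, and Nup188 gained 1 in rotenone.

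Genes with a pattern like those of Tmpo and Ahctf1 were counted over the same 4 libraries, by the number of gained regions in the gene and 50000 bp around it. Besides Tmpo, 527 of 21887 protein-coding genes (2.41%) had at least 1 region gained in both comparisons, and 14 had more than 1. Aadac, Aadacl2 and Sucnr1, which lie side by side on chromosome 3, and Magi2 and Fam234b had 2 each. Besides Ahctf1, 28 genes (0.128%) had at least 3 knockout gains, and 8 had more. These included Pisd with 5 and Atcay, Dapk3, Eef2 and Nmrk2 with 4 each, the last 4 being neighbours on chromosome 10. Long genes have wider windows and more chances for such a count, and neighbours share their regions.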

How the data were processed

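ATAC-seq libraries of 4 groups, 1 per group, were used. The authors deposited 1 peak list per library, called separately. Bowtie2, MACS2, bedtools, HOMER and the build mm10 are listed in the submitters' processing notes; versions, settings and any Tn5 shift are not stated in the labels or notes. The lists have no header and were read in the MACS2 broad peak column order: the fold ratio over the local background, the −log10 p and the −log10 q are the authors' own deposited values, and every listed peak has a q under 0.1. Depth is unknown, so no interval is given.

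Starts were made 1-based. Peaks were ranked by −log10 p (ties by fold) into strong lists of 30000 and partner lists of 60000, and an overlap of 1 bp counted as shared. Where peaks of a library overlapped a merged region, the best ranked gave its values. Gene spans and starts came from RefSeq tables of GRCm38.p6; strand came from the promoter table, and exons were not used here. The 9 genes, the gene lists and the motifs were chosen with earlier results of these data known. All 9 genes are named, and from the envelope and pore lists the 10 with most changed regions in the knockout and rotenone comparisons, ties in alphabetical order; the last 2, Lemd2 and Nup188, came from 8 genes tied at 1. No test was possible with 1 library per group. The code for overlaps was tested on simulated data. Alternatives were other list lengths, ranking by fold, narrower windows, 50% of a peak covered, the whole partner list, and peaks of 150 bp or more. Python 3.11.15, numpy 2.4.6, pandas 2.3.3 and matplotlib 3.10.9 were used.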

Additional observations from a re-analysis of the deposited data

How the results depend on the processing

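With 1 library per group and no read counts, neither the effect of depth on the values nor the spread between replicates is known. No paired analysis was possible because each group holds 1 library. Of 76 recomputed counts, 33 stayed within 1.5 times the reported one and 43 moved by more. A longer strong list holds more strong peaks by construction. The reported counts of gained and lost regions were at most 4, so a change of a few peaks can pass that limit. Other causes were not tested. Strong peaks at the 9 genes numbered 72 in the knockout, 66 in control, 67 in rotenone and 69 in vehicle with strong lists of 60000, and 23 in rotenone and 22 in vehicle with 15000. Inside the gene spans alone they numbered 14 in the knockout, 12 in control, 16 in rotenone and 12 in vehicle, and within 10000 bp 21, 18, 21 and 18 in the same order; a smaller window by construction holds fewer.

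Shares in brackets are those of all strong peaks called under the same setting. In the knockout, 2 of 29 strong peaks were gained with lists of 15000 (4.9% of all) and 9 of 72 with 60000 (12.1%). Inside the spans 1 of 14 was gained and within 10000 bp 2 of 21 (5.33% of all). Against the whole control list 1 of 41 was gained (0.243% of all). Lost ones numbered 3 with 60000, 2 by fold, 0 inside the spans, 0 within 10000 bp, 4 with 50% covered, 0 against the whole knockout list and 3 with peaks of 150 bp or more. In rotenone, 0 of 23 strong peaks were gained with 15000 (5.52% of all) and 6 of 67 with 60000 (15.6%). Inside the spans 1 of 16 was gained and within 10000 bp 1 of 21 (6.81% of all). Against the whole vehicle list 0 of 40 were gained (0.773% of all). Of strong vehicle peaks, 0 of 22 were lost with 15000 (6.09% of all) and 7 of 69 with 60000 (16.5%). Inside the spans 0 of 12 were lost and within 10000 bp 1 of 18 (8.04% of all). Against the whole rotenone list 0 of 37 were lost (0.943% of all), and with peaks of 150 bp or more 1 of 39 (11.4%). For vehicle against control, 1 of 22 strong vehicle peaks was gained with 15000 (0.96% of all) and 4 of 69 with 60000 (4.075%). With 50% covered 1 of 37 was gained (1.83% of all), and with peaks of 150 bp or more 1 of 39 (1.71%). Of strong control peaks, 2 of 36 were lost with 50% covered (1.94% of all). With peaks of 150 bp or more 1 of 36 was lost (3.1% of all). Shares over whole lists moved too: with 60000, 12.5% of strong knockout peaks at the 9 genes were gained, against 12.1% of all, and 8.96% in rotenone, against 15.6%. Against the whole control list 2.44% were gained, against 0.243% of all. The single gain left against the whole control list was the 41 bp peak near Ahctf1.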
